A study of Mus musculus with 12 samples.

Results

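The marks of active promoters and enhancers were read at 10 genes of the stromal inflammatory programme of mouse mesenchymal stem cells (MSCs), out of 21938 protein-coding genes. The genes were chosen by name: the IL-6 family ligands Il6, Lif and Il11, the chemokine ligands Ccl2, Ccl7, Cxcl1, Cxcl5 and Cxcl10, the interleukin-1 receptor gene Il1r1, and Ptgs2, which encodes cyclooxygenase-2. Il1r1 was also chosen for its measured value, because an H3K27ac peak called only at low oxygen lies beside it, and that peak is therefore given as a description. For each gene, the peaks within a window made of the gene body and 20000 bp on each side were selected from 4 peak lists. The windows held 21 of the 22555 distinct intervals of the lists.

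MSCs were first grown at 2% oxygen. After sorting, they were kept at 2% oxygen (hypoxia) or shifted to 21% oxygen (normoxia). They were analysed by chromatin immunoprecipitation and sequencing (ChIP-seq) for acetylation of lysine 27 (H3K27ac) and trimethylation of lysine 4 (H3K4me3) of histone H3. The cells came from wild-type male mice aged 3 to 5 months of the C57BL/6N strain. The methods describe cells released from crushed hind-limb bones and sorted as CD45-, TER-119-, CD140a+ and Sca-1+, while the sample labels call them bone-marrow MSCs. All groups shared this origin and differed in the mark and the oxygen level. Each mark and each input control had 2 libraries per oxygen level, 12 in all, and each mark at each oxygen level was represented by 1 peak list built from both libraries. The lists give positions and a score per peak but no reads or values per library. Depth and the spread between replicates are therefore unknown, no test between the oxygen levels was possible, and every difference below is a difference between peak calls without a replicate check.

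Stromal cells answer infection and injury by secreting cytokines that act on blood-forming and immune cells. Interleukin-1 binds the receptor encoded by Il1r1 and activates NF-kB, a transcription factor that switches on Il6 and many chemokine genes. IL-6, LIF and IL-11 signal through the shared receptor chain gp130, CCL2 and CCL7 attract monocytes, CXCL1 and CXCL5 attract neutrophils, CXCL10 is induced by interferons and attracts T cells, and cyclooxygenase-2 makes the precursor of prostaglandin E2. H3K27ac marks active promoters and enhancers, and H3K4me3 marks promoters, most of all those rich in CpG dinucleotides.

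The cell identity given in the labels was checked first on marker genes. H3K27ac lay within 1000 bp of the start of 10 of 12 stromal genes, among them Ly6a (Sca-1) and Pdgfra (CD140a), the markers used to sort the cells. It did so for 1 of 10 blood cell genes (Cd68) and 0 of 5 endothelial genes. Ptprc, which encodes CD45, had neither mark at its start. The counts were the same at both oxygen levels. The 4 lists held 14603 to 15203 peaks, and 589 H3K27ac peaks were called in hypoxia only against 218 in normoxia only.

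At their starts, the 10 genes carried H3K27ac more often than H3K4me3, the reverse of the genome. A start was taken as the 5′ end of the gene in the GENCODE annotation of the mm10 build, and a mark as present when a peak lay within 1000 bp. H3K27ac was called at the start of 7 genes (Il6, Ccl2, Ccl7, Cxcl1, Cxcl5, Il1r1 and Ptgs2) at each oxygen level, against 35.8% of all protein-coding genes in hypoxia and 35.2% in normoxia. H3K4me3 was called at the start of 3 genes (Cxcl1, Cxcl5 and Ptgs2) at each oxygen level, against 56.6% of coding genes in hypoxia and 56.6% in normoxia. Cxcl1, Cxcl5 and Ptgs2 thus carried both marks, as did 34.6% of coding genes. Il6, Ccl2, Ccl7 and Il1r1 carried H3K27ac without H3K4me3, a state found at 272 coding genes or 1.24%. Of these, Ccl2 and Ccl7 shared the same H3K27ac peak, and Il1r1 was chosen for an H3K27ac peak within 1000 bp of its start. The genes were also chosen with earlier results of these data known, so these counts only describe the chosen genes. Lif, Il11 and Cxcl10 carried neither mark at the gene start.

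**Figure D1:**
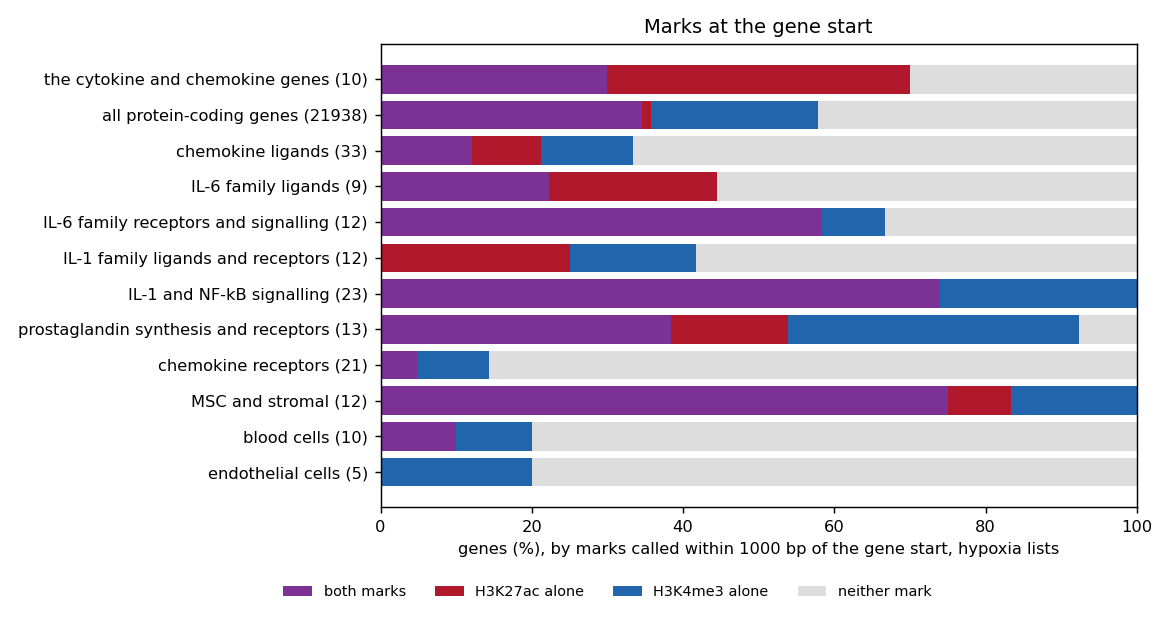
Share of genes (%) with both marks, H3K27ac alone, H3K4me3 alone or neither mark within 1000 bp of the gene start in the hypoxia lists, with the number of genes in brackets. The band of H3K27ac alone holds 4 of the 10 cytokine and chemokine genes and 1.24% of all protein-coding genes. It is absent from the lists of IL-1 and NF-kB signalling, IL-6 family receptors and signalling, chemokine receptors, blood cells and endothelial cells.

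Counting every annotated transcript start changed this picture for the genes with an internal start. With any basic GENCODE transcript start counted, H3K4me3 was present at 6 genes, the additional ones being Lif, Il11 and Il1r1. The share of coding genes rose only to 58.9%. Il6, Ccl2 and Ccl7 still had H3K27ac and no H3K4me3 at any start, as did 254 coding genes or 1.16%. In the wider windows, H3K27ac was found at 9 genes at each oxygen level (55.0% of coding genes in hypoxia and 54.6% in normoxia) and H3K4me3 at 6 genes (69.7% in hypoxia and 69.7% in normoxia). Cxcl10 was the gene without any peak.

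Il6 carried 1 compact H3K27ac peak over its start. The gene lies on chromosome 5 from 30013114 to 30019981 on the plus strand, and its 4 basic transcripts start within the peak, which spans 30011501 to 30014500 (3000 bp). The score of the peak was 124 in hypoxia and 122 in normoxia. The score is the authors' value per peak, from 50 to 160 or 1000, and higher values were read as firmer calls. Those values stood at percentiles 56.4 and 61 of their own lists, so the order of the oxygen levels turned between the scales. The H3K27ac lists differed in their scores, with a median of 111 in hypoxia and 102 in normoxia, and percentiles within a list are therefore given beside them. No H3K4me3 peak and no further H3K27ac peak lay in the window, and the next H3K27ac peak was 134020 bp from the gene. The set of calls of Il6 was found at 95 coding genes (0.433%), Il6, Ccl2 and Ccl7 included.

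The promoter of Il6 is printed here, as its NF-kB match lies just before the start of a gene whose start carries acetylation without H3K4me3. The 250 bases before the start (chr5:30012864-30013113, plus strand) are given 5′ to 3′, from the RefSeq promoter table of the same genome build (GRCm38.p6). Capitals in this and the following sequences mark motif matches on either strand: GGANNTTCC for NF-kB, TGANTCA for AP-1, TTGCNNAA for C/EBP, ACGTG for the core of the hypoxia response element, GAAANNGAA for the interferon-stimulated response element and GGGCGG for the GC box bound by SP1. TATAAA, TGACGTCA (the cAMP response element) and TTCNNNGAA (STAT) were also searched and had no match in the 9 promoters of 7 of these genes that the table held.
Il6: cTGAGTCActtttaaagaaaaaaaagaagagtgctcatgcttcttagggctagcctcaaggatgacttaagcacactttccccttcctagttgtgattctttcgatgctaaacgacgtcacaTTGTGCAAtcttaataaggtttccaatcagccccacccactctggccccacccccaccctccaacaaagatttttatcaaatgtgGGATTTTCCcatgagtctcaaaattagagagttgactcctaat
From the start, the matches begin 249 bases upstream for AP-1, 128 bases upstream for C/EBP and 43 bases upstream for NF-kB. An NF-kB match was present in 3.59% of all 32841 promoters of the table, an AP-1 match in 6.75% and a C/EBP match in 9.57%. A match is a description of the letters and not evidence of binding.

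Lif and Il11, the other IL-6 family ligands, were marked inside the gene and not at its outer start. Lif (chromosome 11, 4257557 to 4272514, plus strand) had an H3K4me3 peak from 4266001 to 4268000 with a score of 132 at both oxygen levels, over an internal transcript start, 9538 bp downstream of the gene start. An H3K27ac peak of 7500 bp lay at its 3′ end (4270001 to 4277500) with the low score of 55 at each oxygen level, percentiles 6.71 and 7.32. That peak also covers the start of the neighbouring gene Gm11959. Il11 (chromosome 7, 4772373 to 4782859, minus strand) had an H3K4me3 peak with the top score of 1000 at both oxygen levels from 4776001 to 4778500, over an internal transcript start, 4718 bp downstream of the gene start. No H3K27ac peak touched Il11. The H3K27ac peak in its window (4791501 to 4795000, score 1000 at both oxygen levels) covers the start of Rpl28, a ribosomal protein gene, and the remaining H3K4me3 peaks lie at the starts of Cox6b2, Tmem238 and Rpl28.

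The internal promoter of Il11 (chr7:4778142-4778391, minus strand) is printed because it is the marked start of this gene. Its capitals are 1 AP-1 match 98 bases upstream and GC boxes that begin between 79 and 47 bases upstream.
Il11 internal start: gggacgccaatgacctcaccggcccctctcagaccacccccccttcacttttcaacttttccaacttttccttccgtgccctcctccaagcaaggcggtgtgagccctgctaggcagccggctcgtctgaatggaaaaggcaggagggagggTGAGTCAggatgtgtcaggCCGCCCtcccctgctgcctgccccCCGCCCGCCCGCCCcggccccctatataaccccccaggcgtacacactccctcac
GC boxes were present in 32.7% of all promoters.

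Ccl2 and Ccl7 lay together in 1 broad acetylated domain. The genes start 10141 bp apart on the plus strand of chromosome 11, Ccl2 from 82035571 to 82037453 and Ccl7 from 82045712 to 82047525. A single H3K27ac peak of 18000 bp, from 82031001 to 82049000, covered both genes whole and stood at percentile 95.3 of the H3K27ac peaks of the hypoxia list by width. Its score was 131 in hypoxia and 126 in normoxia, percentiles 66.4 and 64.5. The values of the pair are thus values of 1 peak and not of 2 independent genes. No H3K4me3 peak lay within either window, and the nearest was 349048 bp from Ccl2 and 338976 bp from Ccl7.

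A further H3K27ac peak of 14000 bp lay upstream of Ccl2 (82010501 to 82024500) with a score of 50 at both oxygen levels, the lowest value in each list. It ends 21212 bp before Ccl7, just outside the window of that gene, and shows where the distance threshold decided membership. H3K27ac covered 64.3% of the Ccl2 window and 43% of the Ccl7 window, percentiles 99.3 and 96.9 among coding genes.

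Cxcl1 and Cxcl5 were marked as promoters with acetylated flanks. Their starts lie 131881 bp apart on the plus strand of chromosome 5. Cxcl5 (90759360 to 90761624) lay in 3 touching H3K27ac intervals that together ran without a gap for 21000 bp, from 90746001 to 90767000. The middle interval, 90758501 to 90760500, held the start and also carried H3K4me3. H3K27ac scores were 127 at both oxygen levels in the upstream and middle intervals and 124 at both in the downstream interval, and the H3K4me3 score was 113 at both. Cxcl5 thus had the same calls and scores at both oxygen levels in every interval, while its H3K27ac scores of 127 stood at percentile 59.7 in hypoxia and 65.6 in normoxia.

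Cxcl1 (90891241 to 90893115) carried both marks in an interval of 2500 bp over its start, 90890001 to 90892500. The H3K27ac score was 77 in hypoxia and 71 in normoxia, percentiles 28.3 and 25.5, and the H3K4me3 score was 125 at both oxygen levels. A second H3K27ac peak of 9500 bp lay upstream between genes (90873501 to 90883000) with a score of 127 in both lists. In Cxcl1 the upstream region, and not the start, therefore had the higher H3K27ac score.

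The Cxcl1 promoter (chr5:90890995-90891244, plus strand) is shown as that of a neutrophil chemokine with both marks. Its ACGTG match begins 196 bases upstream of the start, and its NF-kB match begins 70 bases upstream.
Cxcl1: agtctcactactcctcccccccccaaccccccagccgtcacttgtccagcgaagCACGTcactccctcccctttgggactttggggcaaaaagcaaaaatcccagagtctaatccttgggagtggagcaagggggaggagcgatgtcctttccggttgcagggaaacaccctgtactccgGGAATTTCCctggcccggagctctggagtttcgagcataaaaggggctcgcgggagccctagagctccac
An ACGTG match was present in 16.6% of all promoters.

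Cxcl10 was the gene without a called peak. It lies on chromosome 5 from 92346638 to 92348889 on the minus strand, and 0 peaks of either mark were called in its window at either oxygen level. This set of calls was found at 6186 coding genes (28.2%), Cxcl10 included. The nearest H3K4me3 peak was 36138 bp away and the nearest H3K27ac peak 61138 bp away. The sensitivity of the calling at this locus cannot be judged without read depth.

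The Cxcl10 promoter (chr5:92348890-92349139, minus strand) is printed as the unmarked counterpart of the promoters of Il6 and Cxcl1, because all 3 hold an NF-kB match. Its capitals are an interferon-stimulated response element beginning 213 bases upstream, an NF-kB match 158 bases upstream and an AP-1 match 74 bases upstream.
Cxcl10: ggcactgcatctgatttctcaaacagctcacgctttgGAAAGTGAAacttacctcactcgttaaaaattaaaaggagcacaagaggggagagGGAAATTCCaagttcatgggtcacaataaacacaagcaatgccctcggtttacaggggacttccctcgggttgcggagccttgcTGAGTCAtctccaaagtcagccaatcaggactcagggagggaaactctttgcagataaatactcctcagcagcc
The interferon-stimulated response element had a match in 7.13% of all promoters.

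**Figure D2:**
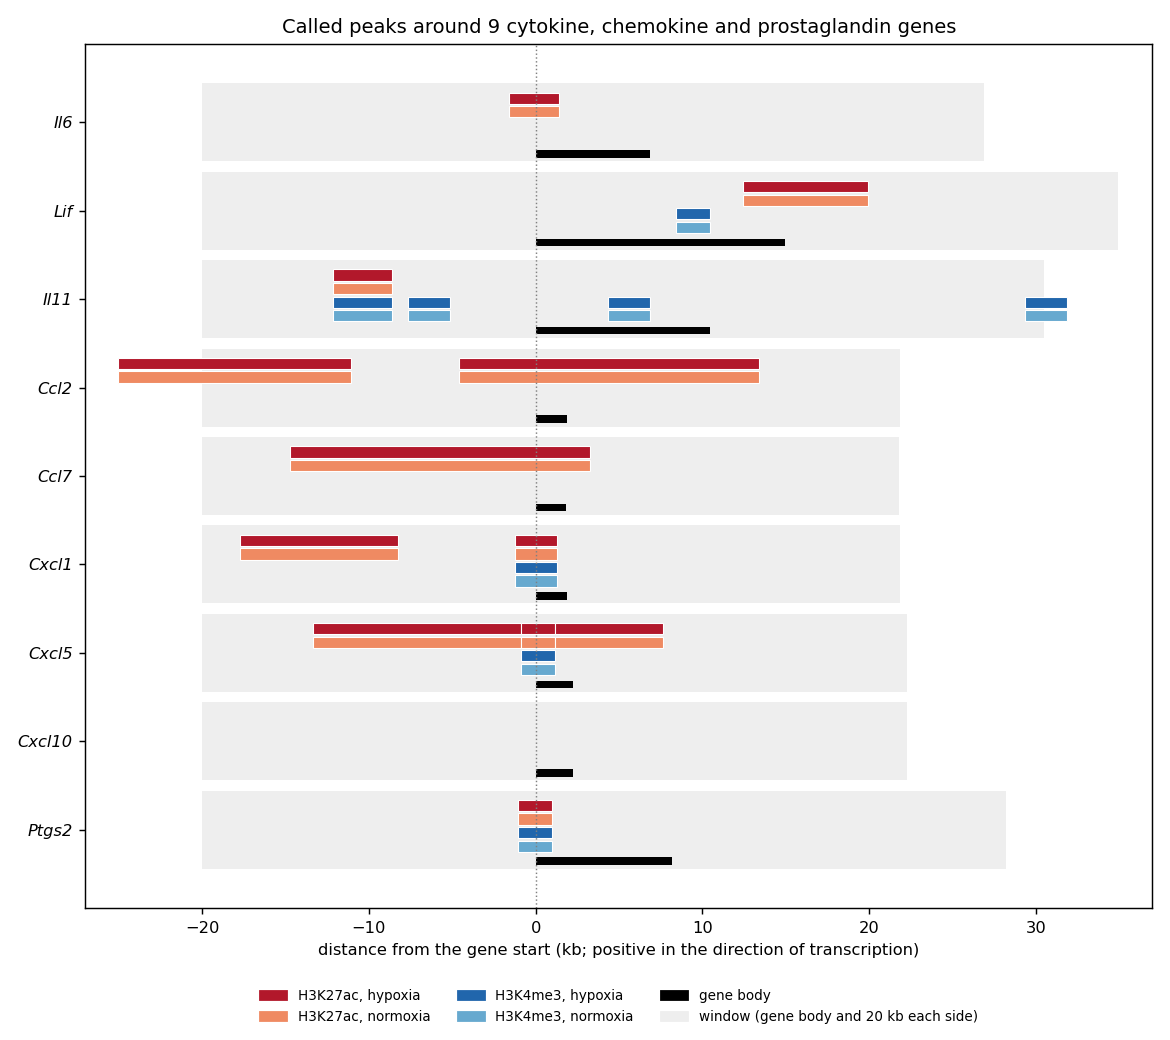
Called peaks of H3K27ac (red) and H3K4me3 (blue) at both oxygen levels around 9 of the 10 genes, by distance from the gene start in kb, with the gene body in black and the window in grey. The hypoxia and normoxia bars match at each of the 9 genes, Ccl2 and Ccl7 show the same domain of 18000 bp, and Cxcl10 has no bar.

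Il1r1 was the gene whose calls differed between the oxygen levels, which is how it had been chosen. It lies on chromosome 1 from 40225080 to 40317257 on the plus strand, a body of 92178 bp. A hypoxia-only H3K27ac peak of 4000 bp, from 40220501 to 40224500, ended 580 bp before the gene start between genes. It touched a shared H3K27ac peak of 20000 bp (40224501 to 40244500) that held the outer transcript start at both oxygen levels. The acetylated domain at the start was therefore called over 24000 bp in hypoxia and 20000 bp in normoxia, with its 3′ edge at the same position.

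The hypoxia-only peak had a score of 64. This was percentile 16.4 of the hypoxia list and percentile 65.9 among the 589 hypoxia-only peaks, whose median score was 58 and median width 3500 bp. Of the hypoxia-only peaks, 228 (38.7%) touched a shared H3K27ac peak in the same way. The next hypoxia-only peak on the chromosome was 1596080 bp from Il1r1. In all, 4.70% of coding genes had a hypoxia-only H3K27ac peak in their window, against 1 of these 10 genes, and 1.15% had a normoxia-only peak, against 0 of 10. Within 1000 bp of the start, a hypoxia-only peak was found at 217 coding genes (0.989%), Il1r1 among them.

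The shared peaks of Il1r1 also differed in score. The domain at the start scored 111 in hypoxia and 93 in normoxia (percentiles 49.8 and 43.8). A peak of 16500 bp inside the gene (40269501 to 40286000) scored 112 and 92 (percentiles 50.3 and 43). The other shared peaks differed less, with 57 against 55 for an intronic peak from 40260001 to 40265500 (percentiles 9.09 and 7.32) and 97 against 94 for the peak at the internal start from 40265501 to 40269500 (percentiles 42.1 and 44.5). The intronic peak, the peak at the internal start and the peak of 16500 bp touch end to end, from 40260001 to 40286000. As scores, all 4 shared peaks were higher in hypoxia, and as percentiles 3 of 4, with the peak at the internal start lower. A shared peak beyond the window, 42080 bp from the gene, scored 83 in hypoxia and 97 in normoxia. H3K4me3 was called at the internal transcript start, 41506 bp downstream of the gene start, with a score of 129 at both oxygen levels. A further H3K4me3 peak in the window, with a score of 85, lay at the start of the neighbouring receptor gene Il1rl2.

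**Figure D3:**
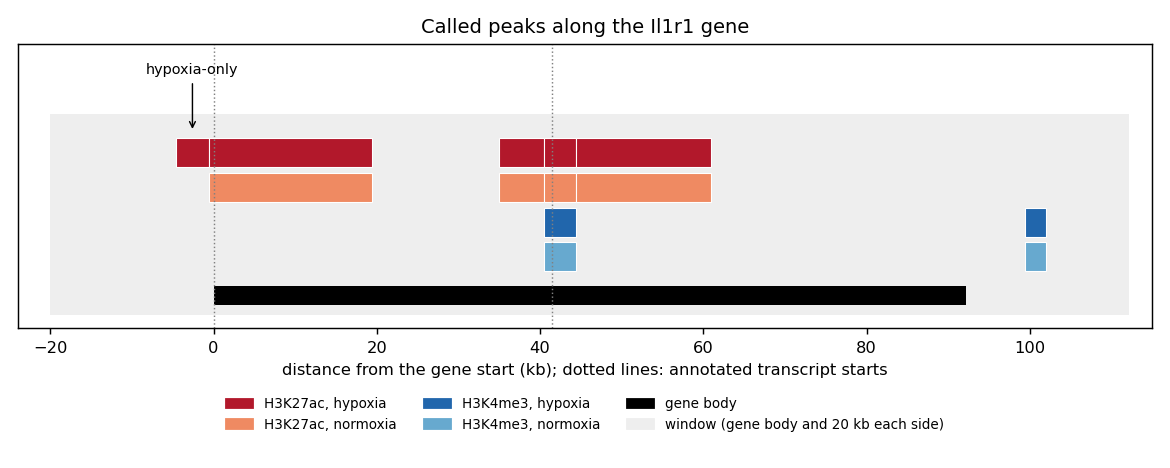
Called peaks of H3K27ac and H3K4me3 at both oxygen levels along Il1r1, by distance from the gene start in kb, with the 2 annotated starts as dotted lines. The hypoxia H3K27ac bar reaches 4000 bp further upstream than the normoxia bar, and H3K4me3 is found at the internal start and not at the outer one.

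The sequences at Il1r1 are shown for its 2 starts and for the edge at which the calls part. The outer promoter (chr1:40224830-40225079, plus strand) had H3K27ac alone, and the internal promoter (chr1:40266336-40266585, plus strand) had both marks. The edge covers 100 bases on each side of the boundary (chr1:40224401-40224600, plus strand), with the hypoxia-only peak on the left, although boundaries are set in steps of 500 bp and do not resolve single bases.
Il1r1 outer start: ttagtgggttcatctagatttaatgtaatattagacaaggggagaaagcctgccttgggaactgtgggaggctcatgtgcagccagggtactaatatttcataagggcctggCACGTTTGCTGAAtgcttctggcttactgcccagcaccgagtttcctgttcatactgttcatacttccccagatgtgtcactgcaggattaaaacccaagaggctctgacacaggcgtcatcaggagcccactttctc
Il1r1 internal start: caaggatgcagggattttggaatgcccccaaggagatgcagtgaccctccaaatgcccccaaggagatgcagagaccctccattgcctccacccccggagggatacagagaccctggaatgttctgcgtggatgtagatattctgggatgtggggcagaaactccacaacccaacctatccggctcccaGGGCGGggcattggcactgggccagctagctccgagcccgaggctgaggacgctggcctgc
Il1r1 peak edge: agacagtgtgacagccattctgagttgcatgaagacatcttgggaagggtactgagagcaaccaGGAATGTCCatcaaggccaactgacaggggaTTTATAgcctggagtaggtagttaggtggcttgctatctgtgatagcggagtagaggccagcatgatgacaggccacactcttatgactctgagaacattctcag
The outer promoter has an ACGTG match on the opposite strand 138 bases upstream of the start, directly followed by a C/EBP match 133 bases upstream. The internal promoter has a GC box 61 bases upstream. The edge holds an NF-kB match in its left part and a TATAAA match on the opposite strand at the boundary. The GC content of the hypoxia-only peak was 46.9%, against a median of 48.6% over all 15421 H3K27ac intervals.

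Ptgs2 had the lower score and the lower percentile in hypoxia. The gene (chromosome 1, 150100031 to 150108227, plus strand) carried both marks in an interval of 2000 bp over its start, 150099001 to 150101000, which also holds the start of an antisense transcript of the Ptgs2os gene. The H3K27ac score was 116 in hypoxia and 126 in normoxia, percentiles 52.1 and 64.5, and the H3K4me3 score was 1000 at both oxygen levels. No further peak lay in its window, and H3K27ac covered 4.15% of it.

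The Ptgs2 promoter (chr1:150099781-150100030, plus strand) is shown as the one with the highest CpG ratio among the 9 promoters that the table held. It has a GC box beginning 170 bases upstream and a C/EBP match 69 bases upstream.
Ptgs2: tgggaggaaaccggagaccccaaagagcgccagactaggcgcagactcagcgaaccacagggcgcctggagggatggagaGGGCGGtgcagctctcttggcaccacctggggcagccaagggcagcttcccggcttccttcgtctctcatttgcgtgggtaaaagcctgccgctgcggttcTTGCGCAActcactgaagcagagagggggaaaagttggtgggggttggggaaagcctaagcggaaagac
Its CpG dinucleotides occurred at 0.564 of the number its C and G content would give.

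Over all peaks of the 10 genes, the number of peaks standing higher or lower in hypoxia depended on the scale. Of their 15 shared H3K27ac peaks, 7 had a higher score in hypoxia, against 39.9% of all 14614 shared H3K27ac peaks. A lower score was found at 1 peak, that of Ptgs2, against 16.6% of all, and an equal score at 7, against 43.6%. The 7 higher scores belonged to Il6, the Ccl2 and Ccl7 domain, the Cxcl1 start and the 4 shared peaks of Il1r1. Il1r1 was the gene chosen for a hypoxia-only peak. Several peaks of Il1r1 and of Cxcl5 are touching intervals, so the counts are not counts of independent peaks. The differences, hypoxia minus normoxia, ran from -10 at Ptgs2 to 20 inside Il1r1, with a median of 0 for these peaks and 0 for all shared peaks. As percentiles within each list, 5 of the 15 peaks stood higher in hypoxia, against 30.3% of all shared peaks, and 10 stood lower, against 69.7%. The 10 include all 7 peaks with equal scores. At each of these, the equal score fell at a lower percentile in the hypoxia list, whose scores run higher (median 111 against 102). Their lower percentiles therefore reflect the make-up of the lists and show no change at the peaks. The peaks that stood higher on both scales were the Ccl2 and Ccl7 domain, the Cxcl1 start and 3 peaks of Il1r1. Ptgs2 was lower on both. The peaks of Il6 and of the Il1r1 internal start were higher in score and lower in percentile. A difference in score of at least 18, that of the domain at the Il1r1 start, was found at 2286 shared peaks (15.6%). Among the 11015 shared peaks below 1000 in both lists, it was found at 1489 (13.5%). H3K4me3 scores were the same in both lists at all 14600 shared H3K4me3 peaks, those of the 10 genes included. The equal H3K4me3 scores given for single genes therefore hold no comparison between the oxygen levels. How far a score depends on the depth of a library was not tested.

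**Figure D4:**
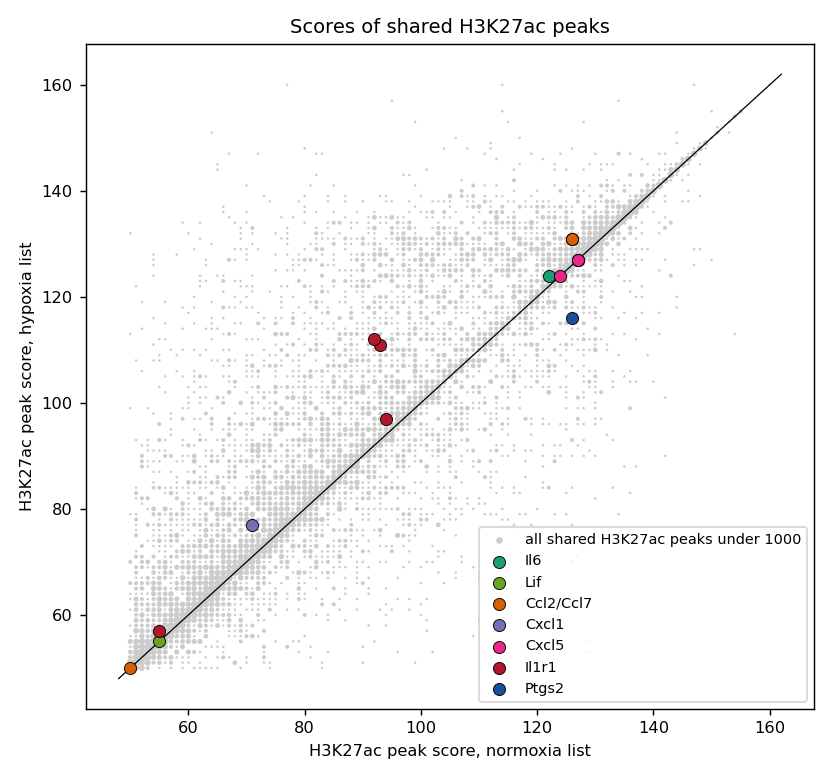
Score of each shared H3K27ac peak in the normoxia list (horizontal axis) and the hypoxia list (vertical axis), both on the authors' scale without units and below 1000, with all peaks in grey, larger dots for more peaks, and those of the 10 genes in colour, except the Rpl28 start in the Il11 window at 1000. The line marks equal scores. The Il1r1 points at scores of 111 against 93 and 112 against 92 lie above it and the Ptgs2 point at 116 against 126 below it.

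The extent of acetylation differed between the genes. Peaks in both H3K27ac lists were identical intervals, so coverage could differ between the oxygen levels only where a whole interval was called at one level alone. Equal shares are therefore no measure of how little oxygen changed the mark. H3K27ac covered 49.7% of the Cxcl5 window, 28.7% of the Cxcl1 window, 13.6% of the Lif window, 6.93% of the Il11 window, 6.4% of the Il6 window and 0% of the Cxcl10 window, the same at both oxygen levels. For Il1r1 the share was 37.8% in hypoxia and 34.8% in normoxia. The median of the 10 genes was 21.2% in hypoxia and 21.2% in normoxia, against 2.56% and 2.45% over all coding genes. In hypoxia it was 33% for the stromal marker genes, 0.115% for all chemokine ligands and 9.38% for all IL-6 family ligands. For the IL-1 family it was 3.36%, and for the prostaglandin genes 10.8%. The 10 genes were chosen with earlier results known, so their median only describes them. Ccl2, Cxcl5, Ccl7, Il1r1 and Cxcl1 stood at percentiles 92.8 to 99.3 of coding genes in hypoxia, while Ptgs2 stood at percentile 56.9 and Il6 at 66.7. The order is one of called bases and not of transcription, and the Ccl2 and Ccl7 windows count the same domain.

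The CpG content of the promoters was compared with the marks. The RefSeq table held 9 promoters of 7 of the genes. The ratio of observed to expected CpG was 0.307 to 0.564 at the 4 promoters with H3K4me3 within 1000 bp (Il1r1 internal, Cxcl1, Il11 internal and Ptgs2). At the 5 promoters without H3K4me3 it was 0.0498 to 0.347 (Il11 outer, Il1r1 outer, Lif, Il6 and Cxcl10). The ranges overlapped, as Cxcl10 without the mark lay above the internal promoter of Il1r1 with it. Over all promoters the median was 0.752 with H3K4me3 and 0.202 without, so each marked promoter of these genes lay below the median of marked promoters.

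**Figure D5:**
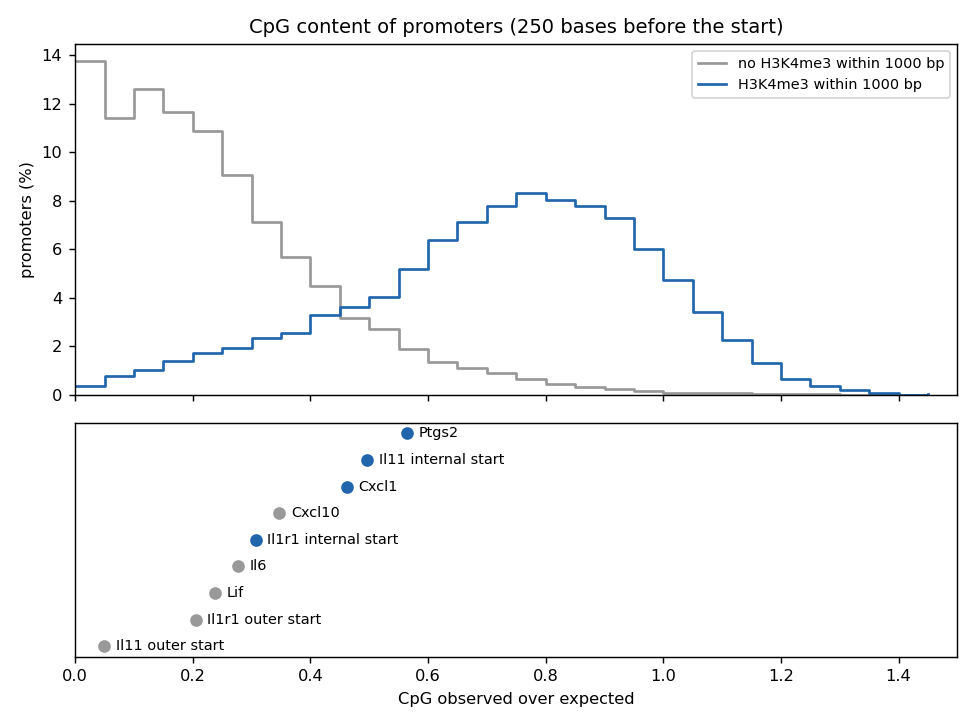
Above, share of promoters (%) by the ratio of observed to expected CpG in the 250 bases before the start, for promoters with and without H3K4me3 within 1000 bp. Below, the same ratio for 9 promoters of 7 of the genes, blue where H3K4me3 was called, running from 0.0498 at the outer start of Il11 to 0.564 at Ptgs2.

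The wider pathways were described through lists that include these genes, to be read against 56.6% of all coding genes with H3K4me3 at the start, 35.8% with H3K27ac and 1.24% with H3K27ac alone in hypoxia. The differences between lists were not tested. Of 33 chemokine ligand genes found in the annotation, 7 had H3K27ac at the start at each oxygen level and 8 had H3K4me3. H3K27ac without H3K4me3 was found at 3, Ccl2, Ccl7 and Ccl9, and neither mark at 22. Among 9 IL-6 family ligands, 4 had H3K27ac at the start and 2 had H3K4me3, and Il6 and Cntf had H3K27ac alone. Among 12 IL-1 family ligands and receptors, 3 had H3K27ac at the start and 2 had H3K4me3. No gene of this family had both marks there, and Il1rn (the receptor antagonist), Il18 and Il1r1 had H3K27ac alone.

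Among the signalling genes downstream, H3K4me3 was called at the start of 23 of 23 IL-1 and NF-kB signalling genes, and H3K27ac at 17. Of 12 receptor and signalling genes of the IL-6 family, 8 had H3K4me3 and 7 had H3K27ac, and 0 had H3K27ac alone. Of 13 genes of prostaglandin synthesis and response, 10 had H3K4me3 and 7 had H3K27ac, and Ptges and Ptger1 had H3K27ac alone. Ptges had H3K4me3 at another annotated transcript start, as Il1r1 did. Chemokine receptor genes had H3K4me3 at 3 of 21 starts and H3K27ac at 1.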

How the data were processed

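ChIP-seq libraries of H3K27ac, H3K4me3 and input were grouped by mark and oxygen level as the sample labels give them. The authors aligned reads to mm10 (bowtie2) and discarded duplicates (Picard). Peaks were called by the authors with chromstaR, a hidden Markov model, which was run on hypoxia and normoxia jointly in its differential mode. The deposited lists give each peak's position and a score, whose definition is not given in the sources used here, and which was compared between the oxygen levels both as deposited and as a percentile within its own list, since the lists differ in their distribution of scores. Overlapping peaks of different lists were identical intervals with boundaries at multiples of 500 bp, so the lists are not independent. No test was run, because no list holds values per library.

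The 10 genes and the gene lists (7 pathways and 3 sets of cell markers) were chosen with earlier results of these data known. All 10 genes are named with each of their peaks; from the lists, the rule named genes with a condition-specific H3K27ac peak in their window and few examples in list order, and genes with an acetylated start that lacked H3K4me3, and Cd68, were named after their values were seen. Peaks within 20000 bp of the gene body were assigned by the GENCODE M21 basic annotation (GRCm38.p6, the same build as mm10). Of 34 chemokine ligand symbols, 33 matched. A peak was hypoxia-only when it had no base in common with the normoxia list of its mark. Promoter sequences came from the RefSeq table of that build, and 9 of 9 equalled the genome at their coordinates. Ccl2, Ccl7 and Cxcl5 were matched to no promoter there. Motifs were searched in the 250 bases before each start on both strands, and no motif contained another. Python 3.11.15 and numpy 2.4.6 were used, and the interval rules were tested on simulated intervals. Alternatives were other windows and start distances, any transcript start, a cover of 50%, leaving out the lowest-scoring 25% of peaks, joining peaks within 1000 bp and counting only peaks over 1000 bp from the other list. Input data and the authors' read-based comparison were not used here. The result of 1 gene of the lists is not reported here.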

Additional observations from a re-analysis of the deposited data

How the results depend on the processing

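No paired analysis was possible because each list pools both libraries of a group, and leaving out a replicate was not possible for the same reason. Of 62 alternative values, 45 stayed within 1.5 times a count, or within the limit set for a share, and 17 moved. Counting any transcript start raised the genes with H3K4me3 at the start from 3 to 6 in hypoxia and from 3 to 6 in normoxia. The number of genes with a hypoxia-only H3K27ac peak, 1 in the report, became 2 with windows of 50000 bp and 2 with 100000 bp, Lif being the added gene. It became 0 when the lowest 25% by score were dropped from both lists, 0 when they were dropped from the hypoxia list alone, 0 when no normoxia peak within 1000 bp was allowed and 0 when peaks within 1000 bp were joined. The Il1r1 call thus depends on a low-scoring interval that touches a shared one. H3K27ac covered 26.5% of the windows in hypoxia and 25.8% in normoxia. The values became 33.7%, 19.4% and 16% in hypoxia and 32.5%, 18.6% and 15.6% in normoxia with 10000, 50000 and 100000 bp on each side, and 21.7% and 21.7% without the lowest-scoring 25%. As percentiles within each list and not as deposited scores, the shared peaks standing higher in hypoxia went from 7 to 5 and those standing lower from 1 to 10. All peaks of equal score were among those 10. The count of genes with H3K27ac alone at the start, 4, ranged from 3 to 5. These last alternatives were chosen after seeing the data. Unknown depth limits every absent call, that of Cxcl10 included.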

Other observations

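Hypoxia-only H3K27ac peaks were also found in the windows of other genes of the same pathways. In the IL-6 family they lay in the windows of Clcf1, which encodes a secreted cytokine, Il6st, which encodes gp130, and Stat3, which encodes its main transcription factor. The peak at Clcf1 (chromosome 19, 4210501 to 4213000) had a score of 51 and lay 1238 bp from the gene start. The peak at Il6st (chromosome 13, 112469001 to 112515000) had a score of 58 and the peak in the Stat3 window (chromosome 11, 100884001 to 100925000) a score of 51. Both were broad, low-scoring intervals that covered most of the body of their gene. In the window of Bcl3, an NF-kB cofactor, the peak (chromosome 7, 19809501 to 19816000) scored 102. Further peaks lay in the windows of Cxcl12 (score 52, 3466 bp from the gene start), which encodes the chemokine that retains blood stem cells in the marrow, Tab2 (65), Ptges (50), Ccr7 (59) and the stromal marker gene Thy1 (55). The windows of the 7 pathway lists and the 3 marker lists held no normoxia-only H3K27ac peak. Over all coding genes 4.70% of windows held a hypoxia-only peak and 1.15% a normoxia-only peak.

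Beyond the chosen window, a hypoxia-only H3K27ac peak of 5000 bp lay 25987 bp from Lif (chromosome 11, 4298501 to 4303500, score 58). The nearest normoxia H3K27ac peak beyond the window was 34987 bp from the gene.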
